A study of Mus musculus with 6 samples.

Results

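The 10 genes described here encode the core of insulin receptor signalling in mouse heart tissue, measured by RNA sequencing. They are the receptor genes Insr and Igf1r, the receptor substrate genes Irs1 and Irs2, the PI3K regulatory subunit gene Pik3r1, the kinase genes Akt1 and Akt2, the transcription factor genes Foxo1 and Foxo3, and the adaptor gene Grb10. They were picked by symbol, all 10 were found, each on 1 row, and the table holds 54352 rows. The 10 genes and the gene lists used below were chosen with earlier results of these data known. Their counts beside the share of all genes are therefore descriptions and not tests. The 6 libraries form 3 groups of 2. Control mice were kept on regular chow and received no virus, and the labels give no age for them. The mice of the other groups were C57BL/6 animals, 12 weeks old at induction, which were fed a diet with 60% of its calories as fat and injected a single time with 75 mg/kg of streptozotocin, a toxin of the insulin-producing beta cell. Diabetes was scored 20 weeks into the diet, by a fasting glucose above 110 mg/dl, a raised glucose after challenge and a raised insulin in the fed state. For fed insulin the labels' protocols quote 325 pmol/L in diabetic and 100 pmol/L in control mice, without tying these values to the animals sequenced. At 16 to 18 weeks after streptozotocin, an adeno-associated virus was injected into the jugular vein, and hearts were taken 4 weeks after the virus, when 5 to 6 months had passed since induction. The group called T2D empty vector here received a virus without insert. In the group called T2D dnMCUb it carried mouse MCUb, which is part of the calcium uniporter of mitochondria, with a FLAG tag and the changes W246R and V251E, which make it dominant negative. The promoter of the vector is not given in the labels. Diet, streptozotocin and virus separate the control group from both others together, so these cannot be told apart. Whether libraries within a group represent different animals is not stated, so every p-value measures only the spread between these libraries, which may be technical.

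Insulin and IGF receptors are tyrosine kinases that phosphorylate the substrates Irs1 and Irs2, which then recruit PI3K through its regulatory subunit. The lipid that PI3K makes brings Akt to the membrane, and Akt moves the glucose transporter GLUT4 to the surface of the cardiac myocyte, promotes protein synthesis and holds FoxO factors out of the nucleus. When insulin is low or the pathway is blunted, FoxO factors enter the nucleus and switch on genes of fat use, protein breakdown and stress defence, and Irs2 and Insr are among their known targets. Grb10 binds the activated receptors and restrains them.

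Values are regularized log (rlog) values on the log2 scale, in which each library is scaled and each value is drawn towards the mean of its gene. The depth of each library is unknown, since the table holds no counts. The drawing-in makes differences small: among genes called by the authors' deposited table, the ratio of the rlog difference to the table's log2 fold had a median of 0.582 (T2D empty vector against control), 0.465 (T2D dnMCUb against T2D empty vector) and 0.509 (T2D dnMCUb against control). The 10 genes were all among the 13094 with a mean rlog of at least 5 that were tested with limma. Library 1 labelled dnMCUb stood apart on the first principal component, at 10.8 against -4.42 to 2.69 for the other 5 libraries, and that component held 46.69% of the variance. Mcub, the gene the vector carries in mutated form, read 5.62 and 5.47 in the libraries labelled dnMCUb against 5.42 to 5.48 in the other 4. It did not pass between T2D dnMCUb and T2D empty vector (limma, adjusted p = 0.888), so it does not check that label, and each direction below that involves these libraries rests on the label. All 9 cardiomyocyte markers were abundant, from 15.82 for Ryr2 to 19.29 for Ttn. Of pancreatic islet markers, Ins1, Gcg and Iapp were listed at 0 in every library and Ins2 lay at -2.09.

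Irs1 was the only member that passed in any comparison, by limma only between T2D dnMCUb and control (adjusted p = 0.04999). It stood highest in the control libraries and lower in all 4 diabetic libraries, and it was called by the authors' deposited table in both comparisons of diabetic hearts with control. The other 9 genes passed in no comparison by either method. Akt1 read lower and Pik3r1 and Foxo3 read higher in all 4 diabetic libraries than in both control libraries, by smaller amounts that did not pass. In bulk tissue, fewer cells of a type and less RNA per cell cannot be told apart, and this holds for each value below. The plot of the 10 genes by library shows these values against the control mean.

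**Figure D1:**
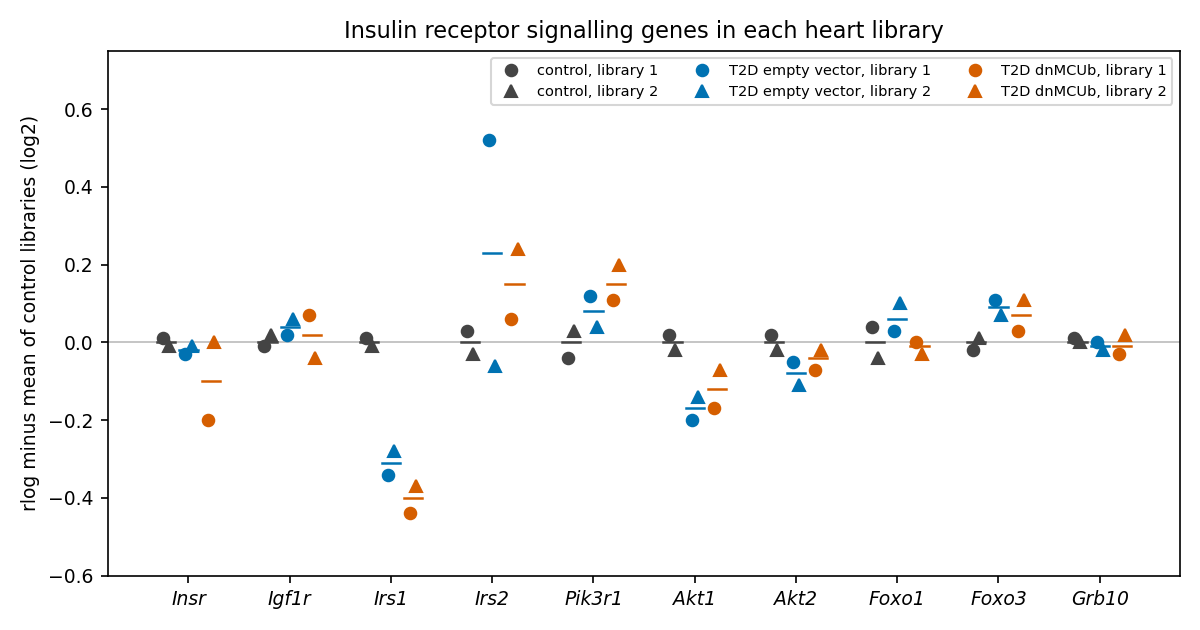
Each point is 1 library's rlog value minus the mean of the 2 control libraries for that gene (y axis, log2 scale), for the 10 genes along the x axis. Circles are library 1 and triangles library 2 of a group, short lines are group means, and the 4 diabetic libraries lie below both controls for Irs1, which spans 0.45, while Grb10 spans 0.05 over all 6 libraries.

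Between T2D empty vector and control, limma called 0 of the 10 genes, and 0% of all 13094 genes. At an unadjusted p under 0.05 it had 2 of the 10, Irs1 and Akt1, against 6.13% of all genes (803 genes). The authors' deposited table called 1 of the 10, Irs1, against 0.542% of the same 13094 genes. The groups did not overlap for 7 of the 10, against 42.4% of all genes: 2 with T2D empty vector higher (19.9% of all genes) and 5 with it lower (22.5%). With T2D dnMCUb set against control, limma called 1 of the 10, Irs1, against 0.0687% of all genes, and the authors' deposited table also called Irs1 alone of the 10, against 0.794%. Irs1 was the 1 lower gene (0.00764% of all genes) among the 9 that limma called there. At an unadjusted p under 0.05 limma had 2 of the 10, Irs1 and Pik3r1, where the background is 11.4%. The groups were apart for 5 of the 10 there, against 42.9%: Irs2, Pik3r1 and Foxo3 with T2D dnMCUb higher (20.2% of all genes) and Irs1 and Akt1 with it lower (22.7%). For the 2 diabetic groups against each other limma called 0 of the 10 and 0% of all genes, with 0 of the 10 at an unadjusted p under 0.05 against 5.64% (739 genes), and the authors' deposited table called 0 of the 10 against 0.0611%. There Irs1 and Foxo1, 2 of the 10, were apart, both with T2D dnMCUb lower (16.5% of all genes; 32.2% in either direction). For the mean of both diabetic groups against control, limma called 0 of the 10 and 0% of all genes, with 3 of the 10 (Irs1, Akt1 and Pik3r1) at an unadjusted p under 0.05 against 9.69% (1269 genes). The 4 diabetic libraries lay on 1 side of both controls for 4 of the 10, against 21.9% of all genes. The comparisons with control share the control libraries, so their values are set side by side and not counted as separate support.

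The number of genes limma called depended on single libraries. In the comparison of T2D dnMCUb with control the 9 became 743 without library 2 labelled dnMCUb, 89 without library 1 labelled dnMCUb, 1 without control library 2 and 0 without control library 1 or either T2D empty vector library. In that of T2D empty vector with control the 0 became 30 without either library labelled dnMCUb and 1 without control library 2. For the mean of both diabetic groups the 0 became 314 without library 2 labelled dnMCUb, 79 without library 1 and 2 without control library 2, and between the diabetic groups it became 14 without library 1 labelled dnMCUb.

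No difference between groups passed for the receptor genes. Insr, on chromosome 8 from 3122061 to 3279617 (minus strand, GRCm38), encodes the insulin receptor. It read 11.91 and 11.89 (control), 11.87 and 11.89 (T2D empty vector) and 11.70 and 11.90 (T2D dnMCUb). Library 1 labelled dnMCUb was the low one, and the other 5 lay within 11.87 to 11.91. The difference from control was -0.02 (SE 0.071; 95% interval -0.19 to 0.15) in T2D empty vector and -0.10 (SE 0.071; -0.27 to 0.07) in T2D dnMCUb. That between the diabetic groups was -0.08 (SE 0.071; -0.25 to 0.09). Without library 1 labelled dnMCUb the last of these was 0.0223 and that between T2D dnMCUb and control 0.00197. Igf1r, on chromosome 7 from 67952827 to 68233668 (plus strand), encodes the receptor for insulin-like growth factor. It read 9.35 and 9.38 (control), 9.38 and 9.42 (T2D empty vector) and 9.43 and 9.32 (T2D dnMCUb). The groups overlapped in every comparison. Its difference from control was 0.04 (SE 0.050; 95% interval -0.08 to 0.15) in T2D empty vector and 0.01 (-0.10 to 0.13) in T2D dnMCUb.

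The substrate genes Irs1 and Irs2 differed in both level and spread. The proteins they encode are docking platforms that, once phosphorylated on tyrosine, bind PI3K. Irs1 (ENSMUSG00000055980.2) lies on chromosome 1 from 82233101 to 82291416, minus strand. Irs2 (ENSMUSG00000038894.7) lies on chromosome 8 from 10984681 to 11008458, minus strand. The transcripts listed for both genes have 2 exons. The 250 bases before each RefSeq start (GRCm38.p6) are shown because these 2 genes share an arrangement of motifs there that the other members with a sequence lack. Capitals mark CACGTG (the E-box), TGTTTTG (the insulin response sequence CAAAACA read on the other strand, a FoxO-binding motif) and GGGCGG (the GC box). The Irs1 stretch is chr1:82291440-82291689, minus strand, and the Irs2 stretch is chr8:11008930-11009179, minus strand.
Irs1: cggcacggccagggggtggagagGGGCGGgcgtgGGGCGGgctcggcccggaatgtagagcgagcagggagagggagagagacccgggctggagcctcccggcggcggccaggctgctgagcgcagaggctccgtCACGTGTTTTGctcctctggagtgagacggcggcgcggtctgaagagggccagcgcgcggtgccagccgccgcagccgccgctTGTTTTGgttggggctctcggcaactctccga
Irs2: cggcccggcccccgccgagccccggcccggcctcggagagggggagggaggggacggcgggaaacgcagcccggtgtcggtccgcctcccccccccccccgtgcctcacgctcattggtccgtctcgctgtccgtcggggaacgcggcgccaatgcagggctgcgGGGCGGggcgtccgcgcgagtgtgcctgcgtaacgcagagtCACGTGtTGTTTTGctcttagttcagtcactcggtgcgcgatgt
In Irs1 the E-box and TGTTTTG share 2 bases, and in Irs2 1 base lies between them. Sequences of the same length were searched on both strands in 32851 RefSeq promoters. CACGTG was in 6.02% of them, CAAAACA in 5.56%, GTAAACA, the other FoxO motif searched, in 3.17%, and GGGCGG in 32.7%. An E-box and CAAAACA within 10 bases of each other were in 14 promoters (0.0426%), and this pair was looked for after the sequences of Irs1 and Irs2 had been seen. Of the 9 members with a promoter sequence, Irs1 and Irs2 alone held CACGTG or CAAAACA, and Akt1 alone held GTAAACA, while all 9 held GGGCGG in at least 1 listed promoter. A match of letters is a description and says nothing of binding in these hearts.

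Irs1 read 10.41 and 10.39 (control), 10.06 and 10.12 (T2D empty vector) and 9.96 and 10.03 (T2D dnMCUb). No group overlapped another, and the order was control, T2D empty vector, T2D dnMCUb. Between T2D dnMCUb and control Irs1 fell by 0.41 on the rlog scale (SE 0.047; 95% interval -0.51 to -0.30; limma, adjusted p = 0.04999), a change of -24.5%, and it ranked 9 of 13094 by p. There the authors' deposited table has a log2 fold of -0.69, or -37.8% (adjusted p = 0.000503). In T2D empty vector the difference from control was -0.31 (SE 0.047; -0.42 to -0.20), or -19.4%, which ranked 6 of 13094 by p but did not pass (limma, adjusted p = 0.409). The authors' deposited table called that comparison, with a log2 fold of -0.52, or -30.1% (adjusted p = 0.00101). Over both diabetic groups the difference from control was -0.36 (SE 0.041; limma, adjusted p = 0.0745), which ranked 2 of 13094. Between the diabetic groups it was -0.09 (SE 0.047; -0.20 to 0.01; limma, adjusted p = 0.877), and the authors' deposited table gave a log2 fold of -0.16 (adjusted p = 1). The 2 libraries of a group differed by 0.022 (control), 0.056 (T2D empty vector) and 0.065 (T2D dnMCUb), all smaller than the difference from control.

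The Irs1 difference kept its sign and moved little in size, while the call moved. Its size could move only with median centring, quantile normalization or leaving out a library of the groups compared. All other settings leave the group means as they are. Over 15 alternative settings the difference between T2D dnMCUb and control ran from -0.438 to -0.373, with an adjusted p from 0.0119 to 0.413, and 5 of the 15 called it. It was called without library 1 labelled dnMCUb (adjusted p = 0.0259) and without library 2 (0.0119). It was not called without control library 1 (0.413), control library 2 (0.392) or either T2D empty vector library (0.119 each). It was also not called with the replicate number as a block (0.209). Between T2D empty vector and control the difference ran from -0.339 to -0.283 over the 15, with an adjusted p from 0.0395 to 0.999, and 3 called it. Those were the fit to the 2 groups alone (0.0397) and the fits without library 1 (0.0402) or library 2 (0.0395) labelled dnMCUb. For both diabetic groups it ran from -0.374 to -0.342, with an adjusted p from 0.00778 to 0.762, and 4 of the 15 called it, among them those without library 1 (0.0113) and without library 2 (0.00778) labelled dnMCUb.

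Cardiac muscle markers read lower in the same groups as Irs1. The summed level of the 9 cardiomyocyte markers was 20.91 to 20.99 (control), 20.82 to 20.84 (T2D empty vector) and 20.54 to 20.87 (T2D dnMCUb). Of the 9, 1 was higher in T2D empty vector than in control (median -0.14) and 0 in T2D dnMCUb than in control (median -0.20), with 0 and 1 at an unadjusted p under 0.05. The summed level of 10 endothelial markers was 14.76 to 14.87, 14.85 to 14.87 and 14.85 to 14.88 in the same order of groups. Of the 7 adipocyte markers only Pparg was tested, and the list's summed level was 8.36 to 8.44, 8.43 to 8.50 and 8.55 to 8.55. Other lists read higher in T2D dnMCUb than in control: 12 of 12 macrophage markers (median 0.17, with 7 at an unadjusted p under 0.05), 8 of 8 fibroblast markers (median 0.26, with 0) and 6 of 6 red cell markers tested (median 0.43, with 0). Of atrial markers 4 of 5 were above 0 there (median 0.30), of smooth muscle and pericyte markers 4 of 8 (median 0.08) and of skeletal muscle markers 0 of 2 (median -0.39, with 1 at an unadjusted p under 0.05). The part of these cell types in the Irs1 result was not tested. The genes whose pattern over the 6 libraries was nearest to that of Irs1, by the root mean square difference of values centred on each gene's mean, were Lpin1 (0.0487), which encodes a phosphatidate phosphatase, and the keratin gene Krt222 (0.053). Lpin1 read 12.11 and 12.17 in the controls, 11.91 and 11.92 with the empty vector, and 11.78 in both libraries labelled dnMCUb. Likeness over 6 libraries is a description, and the libraries share their groups.

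Irs2 read 8.25 and 8.19 (control), 8.74 and 8.16 (T2D empty vector) and 8.28 and 8.46 (T2D dnMCUb). The high value was that of T2D empty vector library 1, while library 2 of that group was the lowest of all 6. The gap of 0.57 between those libraries was exceeded by 0.137% of the genes tested. The difference from control was 0.23 (SE 0.16; 95% interval -0.14 to 0.60; limma, adjusted p = 0.856) in T2D empty vector and 0.15 (SE 0.16; -0.22 to 0.52) in T2D dnMCUb, and neither passed. Between the diabetic groups it was -0.08 (-0.45 to 0.29). Without T2D empty vector library 1 the first was -0.0588 and the last 0.209. In the authors' deposited table Irs2 had a log2 fold of 0.64 (adjusted p = 1) and 0.38 (adjusted p = 1) against control. Nearest to Irs2 in pattern were Slc40a1 (root mean square difference 0.0853), the iron exporter gene, and Rny1 (0.0879), a small noncoding RNA gene. Both read highest in T2D empty vector library 1, which follows from their choice by likeness to Irs2. Per length of the listed transcript, Irs1 exceeded Irs2 on the log2 scale by 1.63 and 1.67 (control), 0.79 and 1.43 (T2D empty vector) and 1.15 and 1.04 (T2D dnMCUb). These are 3.14-fold, 2.16-fold and 2.13-fold from the group means, and both controls lay above all 4 diabetic libraries.

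Pik3r1 encodes the regulatory subunit that carries PI3K to the phosphorylated substrates. The gene lies on chromosome 13 from 101680563 to 101768217, minus strand, and the table lists it with a short transcript from 101683664 to 101692630. It read 10.53 and 10.60 (control), 10.69 and 10.61 (T2D empty vector) and 10.68 and 10.77 (T2D dnMCUb). All 4 diabetic libraries lay above both controls. The difference from control was 0.09 (SE 0.056; 95% interval -0.05 to 0.22; limma, adjusted p = 0.849) in T2D empty vector and 0.16 (SE 0.056; 0.03 to 0.29; limma, adjusted p = 0.354) in T2D dnMCUb. The authors' deposited table has log2 folds of 0.14 and 0.25, and neither passed.

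Akt1 and Akt2 encode the kinases that carry most of the signal below PI3K, and Akt2 is the form most tied to glucose uptake. Akt1 (chromosome 12 from 112653821 to 112674884, minus strand) read 11.13 and 11.09 (control), 10.91 and 10.97 (T2D empty vector) and 10.94 and 11.04 (T2D dnMCUb). The 4 diabetic libraries lay below both controls, library 2 labelled dnMCUb by the least. Its difference from control was -0.17 (SE 0.054; 95% interval -0.29 to -0.04; limma, adjusted p = 0.762) in T2D empty vector and -0.12 (SE 0.054; -0.24 to 0.01; limma, adjusted p = 0.466) in T2D dnMCUb. Over both diabetic groups it was -0.14 (SE 0.047; -0.25 to -0.03; limma, adjusted p = 0.408). For T2D empty vector the authors' deposited table has a log2 fold of -0.26 (adjusted p = 0.469). Akt2 (chromosome 7 from 27591552 to 27640826, plus strand) read 10.042 and 9.997 (control), 9.971 and 9.906 (T2D empty vector) and 9.952 and 9.998 (T2D dnMCUb). The T2D empty vector libraries were below both controls, and those labelled dnMCUb overlapped the controls. The difference from control was -0.08 (SE 0.047; -0.19 to 0.03) and -0.04 (-0.15 to 0.06).

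Foxo1 and Foxo3 encode the transcription factors that Akt keeps out of the nucleus, a control that acts on the protein and is not measured here. Foxo1 (chromosome 3 from 52268336 to 52353221, plus strand) read 8.44 and 8.36 (control), 8.43 and 8.50 (T2D empty vector) and 8.40 and 8.37 (T2D dnMCUb). It was lower in both libraries labelled dnMCUb than in both T2D empty vector libraries, a difference of -0.07 (SE 0.046; 95% interval -0.18 to 0.04) that did not pass, and it overlapped between each diabetic group and control. Foxo3 (chromosome 10 from 42181841 to 42276755, minus strand) read 9.41 and 9.44 (control), 9.54 and 9.50 (T2D empty vector) and 9.46 and 9.54 (T2D dnMCUb). All 4 diabetic libraries were above both controls. The difference from control was 0.10 (SE 0.045; -0.01 to 0.20; limma, adjusted p = 0.805) in T2D empty vector and 0.07 (SE 0.045; -0.03 to 0.18) in T2D dnMCUb, and neither passed.

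Grb10 (chromosome 11 from 11930508 to 12038683, minus strand), the adaptor that restrains the receptors, had the narrowest range of the 10. It read 11.23 and 11.22 (control), 11.22 and 11.20 (T2D empty vector) and 11.19 and 11.24 (T2D dnMCUb). Its difference from control was -0.02 (SE 0.047; 95% interval -0.13 to 0.10) in T2D empty vector and -0.01 (-0.12 to 0.10) in T2D dnMCUb. The standard error of Grb10 is larger than its own spread, because limma draws each gene's variance towards that of genes of like level.

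**Figure D2:**
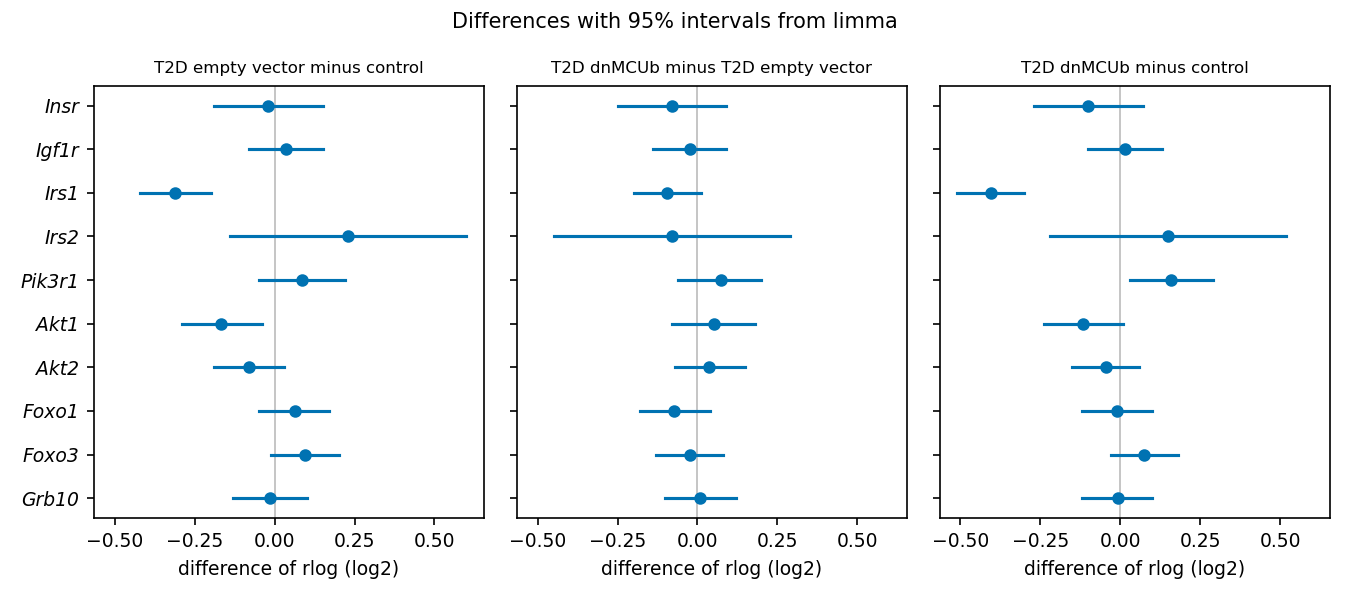
Differences of rlog (x axis, log2 scale) for the 10 genes in 3 comparisons, with points for the estimates and lines for 95% intervals from limma, not adjusted for the number of genes. The intervals for Irs1 lie wholly below 0 in both comparisons with control, -0.42 to -0.20 and -0.51 to -0.30, and the widest interval in each panel is that of Irs2.

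Levels were compared between genes only per length, as the rlog value less log2 of the length in kb of the transcript listed in the table. Averaged over 6 libraries, Akt1 led at 9.60, followed by Pik3r1 (9.11), Grb10 (8.88), Insr (8.64), Akt2 (8.44) and Foxo3 (7.95). Irs1 came next at 6.97, and Igf1r (5.87), Irs2 (5.69) and Foxo1 (5.30) were the lowest. The 6 libraries of neighbours in this order overlapped for Insr with Akt2 and for Igf1r with Irs2, and were apart for the other 7 neighbouring pairs. Within families, Insr exceeded Igf1r 7.08-fold in control per length of the listed transcript and 7.09-fold per length of all annotated exons. The other family ratios moved with the length: Akt1 exceeded Akt2 2.31-fold per listed length and 3.7-fold per length of all exons, and Foxo3 exceeded Foxo1 6.12-fold and 2.33-fold. Irs1 exceeded Irs2 3.14-fold under both. The order also depended on the length, and which one the counting followed is not known. Per length of all exons, Insr stood at place 2 instead of 4, Pik3r1 at 4 instead of 2, Irs1 at 6 instead of 7, Foxo3 at 7 instead of 6, Irs2 at 8 instead of 9 and Igf1r at 9 instead of 8, and the other 4 genes kept their places. The listed transcript of Pik3r1 has 2904 of its 10079 annotated exon bases, that of Foxo3 2882 of 7571 and that of Grb10 5028 of 9089.

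**Figure D3:**
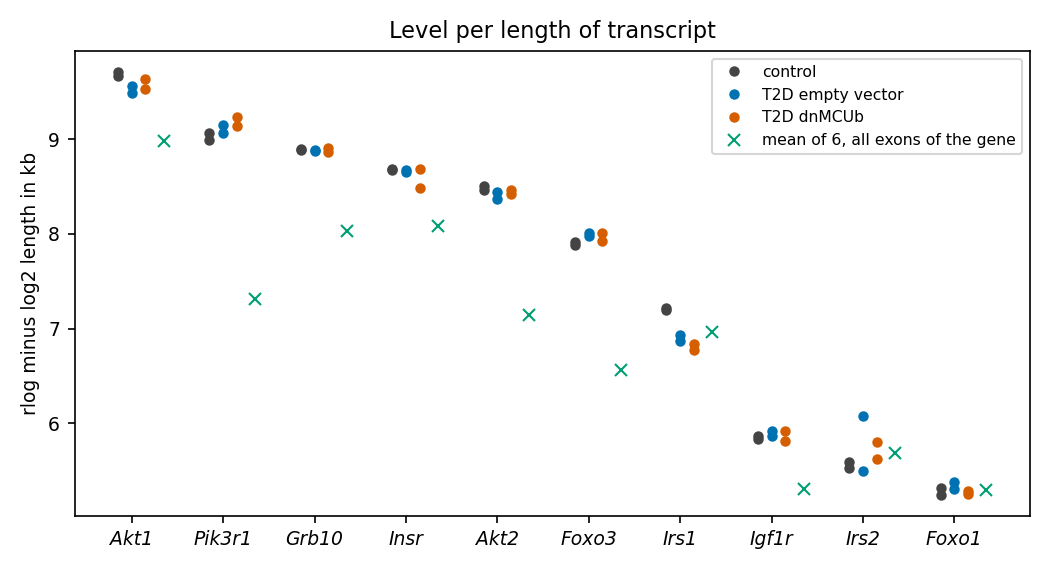
The rlog value minus log2 of length in kb (y axis) for each of the 6 libraries, for the 10 genes along the x axis from highest to lowest mean. Points use the transcript listed in the table and crosses give the mean of 6 over the length of all exons annotated for the gene. Akt1 leads under both lengths, and the control points of Irs1 are set apart above the 4 diabetic ones.

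The rest of the pathway was read from a list of 109 further genes grouped by role, of which 98 were tested, and 25 genes known as FoxO targets, all tested. By limma 0 of the 98 passed in any of the 4 comparisons. At an unadjusted p under 0.05 there were 6, 10 and 14 of the 98 (6.12%, 10.2% and 14.3%) between T2D empty vector and control, between the diabetic groups and between T2D dnMCUb and control, where all genes gave 6.13%, 5.64% and 11.4%. The authors' deposited table called 1 of the 98, between T2D dnMCUb and control, against 0.794% of all genes. This was Slc2a4, the gene of the insulin-responsive transporter GLUT4. It read 12.83 and 12.76 (control), 12.65 and 12.57 (T2D empty vector) and 12.34 and 12.54 (T2D dnMCUb), so no group overlapped another. Its log2 fold was -0.52 in the authors' deposited table (adjusted p = 0.0141). By limma its difference there was -0.35 (SE 0.077; adjusted p = 0.167) and that of T2D empty vector from control -0.18 (SE 0.077; adjusted p = 0.805). The first depended on library 1 labelled dnMCUb, which at 12.34 was the lower of its group. It was -0.449 without library 2, which leaves 1 library in that group, and smaller in size than -0.35 without library 1. The median difference of the 98 was 0.015, -0.011 and 0.008 in those 3 comparisons, and that of all genes tested -0.002, -0.001 and -0.002.

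Of the PI3K subunits and their inhibitor, all 6 tested were above 0 in T2D empty vector against control, with a median of 0.040, and 1 of 6 was above 0 between T2D dnMCUb and T2D empty vector, with a median of -0.070. For all genes 48.2% and 49.5% were above 0. Pik3ip1, which encodes an inhibitor of PI3K, read 9.50 and 9.45 in the controls against 9.63 and 9.71 in T2D empty vector, a difference of 0.20 (SE 0.050; limma, adjusted p = 0.626). Pik3cd, the catalytic subunit best known from leukocytes, was at 0.13 (SE 0.035; limma, adjusted p = 0.682). Without control library 2 the first median was 0.0727, and without control library 1 4 of the 6 were above 0. Around Akt, Deptor, an inhibitor of mTOR, was at 0.13 (SE 0.037) in T2D empty vector against control, and Pdpk1, the kinase that activates Akt, at -0.10 (SE 0.041), neither passing. Among adaptors, Sos1, an exchange factor for Ras, was at 0.11 (SE 0.040) and Dok4 at -0.14 (SE 0.069), and in the MAP kinase arm Mapk3 was at 0.10 (SE 0.042) and Braf at 0.08 (SE 0.046). The FoxO gene Foxo4 was at 0.09 (SE 0.064) and the phosphatase gene Inpp5k at 0.13 (SE 0.067). None of these 6 passed.

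Between T2D dnMCUb and T2D empty vector, the group of ligands and binding proteins had 7 of 7 genes above 0 with a median of 0.185, against 49.5% of all genes. Igfbp6, a binding protein with a preference for IGF2, read 8.03 and 8.08 in the T2D empty vector libraries against 8.23 and 8.24 in those labelled dnMCUb, a difference of 0.19 (SE 0.039; limma, adjusted p = 0.780). Igf2 was at 0.24 (SE 0.083; limma, adjusted p = 0.869). Without library 1 labelled dnMCUb the median of the 7 was 0.00659 with 4 above 0, and without library 2 it was 0.316. Fibroblast markers, of which 8 of 8 were above 0 (median 0.12), had a summed level of 14.83 to 15.13 in T2D empty vector and 14.91 to 15.43 in T2D dnMCUb. Macrophage markers, of which 12 of 12 were above 0 (median 0.13, 5 at an unadjusted p under 0.05), had 13.08 to 13.16 and 13.17 to 13.36. Red cell markers were above 0 in 6 of 6 (median 0.83, all 6 at an unadjusted p under 0.05, where all genes gave 5.64%). Their summed level was 11.72 to 11.75 against 12.48 to 13.01. Atrial markers were above 0 in 5 of 5 (median 0.66, 2 at an unadjusted p under 0.05), with 10.79 to 10.87 against 10.89 to 12.29. The part of these cell types in the ligand group was not tested. In the mTORC1 arm 3 of 14 genes were above 0 (median -0.039), which became -0.00312 and -0.0702 when library 1 or library 2 labelled dnMCUb was left out. Tsc2 and Tsc1, partners in the complex that restrains mTORC1, were at -0.15 (SE 0.047) and -0.13 (SE 0.052). Of the targets of Akt, Tbc1d4, which holds back GLUT4 vesicles, was at -0.20 (SE 0.083) and Pfkfb2, a heart regulator of glycolysis, at -0.22 (SE 0.073). Socs2 and Socs3, which encode inhibitors of receptor signalling, were at 0.13 (SE 0.046) and 0.10 (SE 0.045), and the phosphatase gene Phlpp1 at -0.11 (SE 0.044). Ide, the insulin-degrading enzyme gene, was at -0.08 (SE 0.073) and Igf2r at 0.02 (SE 0.11), while the PKC genes Prkcq and Prkce were at -0.05 (SE 0.036) and -0.06 (SE 0.054). None of the genes named in this comparison passed by limma.

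FoxO targets were read as a list beside Foxo1 and Foxo3. As the list was chosen with earlier results of these data known, its values beside those of all genes are a description. Between T2D empty vector and control, 19 of the 25 were above 0 with a median of 0.082, where 48.2% of all genes were above 0 with a median of -0.002. For 14 of the 25 the T2D empty vector libraries were both above the controls, against 19.9% of all genes. By limma 0 of the 25 passed in any of the 4 comparisons, with 3 at an unadjusted p under 0.05 in this one (12%, against 6.13%). The authors' deposited table called 2 of the 25 here, Pdk4 and Cat, against 0.542% of all genes. Pdk4, the kinase that shuts off pyruvate oxidation, read 12.67 and 12.31 in the controls, 13.71 in both T2D empty vector libraries, and 13.49 and 13.99 in T2D dnMCUb. All 4 diabetic libraries were above both controls, by 1.22 (SE 0.17; limma, adjusted p = 0.326) in T2D empty vector and 1.25 (SE 0.17; limma, adjusted p = 0.0576) in T2D dnMCUb, and the authors' deposited table gave log2 folds of 1.79 (adjusted p = 6.62e-07) and 1.86 (adjusted p = 0.00903). Pdk4 passed by limma between T2D empty vector and control without library 1 (adjusted p = 0.00226) or library 2 (0.00215) labelled dnMCUb. It did not pass there when any control or T2D empty vector library was dropped. With library 1 labelled dnMCUb dropped, Pdk4 differed by 1.5 between T2D dnMCUb and control. Dropping library 2 instead gave 0.994, and each of these fits leaves 1 library in that group. In this comparison too, Pdk4 did not pass when any control or T2D empty vector library was dropped. Cat, which encodes catalase, read 12.25 and 12.24 in the controls against 12.54 and 12.48 in T2D empty vector, a log2 fold of 0.39 in the authors' deposited table (adjusted p = 0.00136) and a difference of 0.26 by limma (SE 0.078; adjusted p = 0.722). Several of the 25 are also known targets of PPAR alpha, Pdk4 and Cat among them, so the list is not specific to FoxO. Against control, the median of the 25 was 0.047 in T2D dnMCUb (quartiles -0.03 to 0.11) and 0.048 over both diabetic groups (-0.02 to 0.11). Between T2D empty vector and control it was 0.0487 without control library 2. In the same comparison 1 of 9 cardiomyocyte markers (median -0.14), 8 of 8 fibroblast markers (0.10), 0 of 6 red cell markers (-0.38) and 0 of 5 atrial markers (-0.60) were above 0, and their part in the FoxO list was not tested.

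Between T2D dnMCUb and T2D empty vector, 9 of the 25 FoxO targets were above 0, against 49.5% of all genes, and their median was -0.033. It was -0.00972 without T2D empty vector library 1, -0.0056 without library 1 labelled dnMCUb and -0.0828 without library 2. Trim63, a ubiquitin ligase gene of muscle protein breakdown, read 11.73 and 11.77 in the T2D empty vector libraries against 11.48 and 11.49 in those labelled dnMCUb, a difference of -0.27 (SE 0.049; limma, adjusted p = 0.780) with both groups apart. Lpl, the lipoprotein lipase gene, was called by the authors' deposited table between T2D dnMCUb and control (log2 fold -0.45, adjusted p = 0.0225). By limma the Lpl difference there was -0.32 (SE 0.098, adjusted p = 0.299) and did not pass. Library 1 labelled dnMCUb, at 15.58, was lower than library 2, at 15.73. The Lpl difference was -0.396 without library 2, which leaves 1 library in that group, and smaller in size than -0.32 without library 1.

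**Figure D4:**
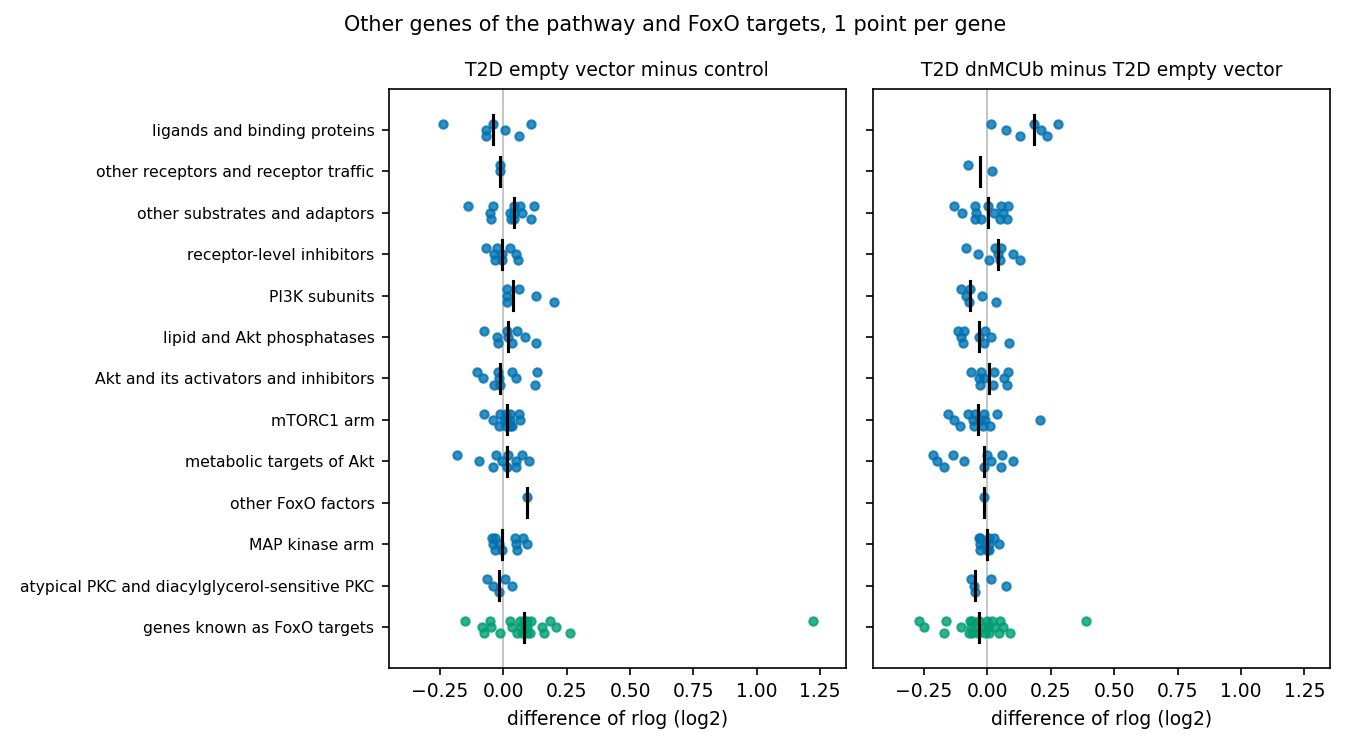
Differences of rlog (x axis, log2 scale) for the other pathway genes by role (blue) and for FoxO targets (green), 1 point per gene tested and a black line at each group's median, in 2 comparisons. The point at 1.22 is Pdk4, the median of the FoxO targets is 0.082 on the left, and that of ligands and binding proteins is 0.185 on the right.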

How the data were processed

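Heart RNA was sequenced from ribosomal RNA-depleted, stranded libraries, per the labels' protocols. Tools listed in the submitters' processing notes are STAR 2.5.2a, DESeq2 and bcl2fastq 2.20.0.422, beside the builds GRCm38, mm10 and hg38, whose roles are not stated. How reads were counted, with which strand setting and filters, is not given in the sources used. The values deposited by the authors are rlog values on the log2 scale for 6 libraries, log2 fold changes for 3 comparisons, and p-values and adjusted p-values of those comparisons, per the file headers. Every value column was matched to a library or a comparison. The table holds no counts, so depth is unknown and no count model was run.

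Of 54352 rows, 22778 were at 0 throughout. Genes averaging an rlog of 5 or more, 13094 in all, were fitted with limma 3.58.1 (R 4.3.3, statmod 1.5.0), with the 3 groups in 1 model, 3 residual degrees of freedom, a mean-variance trend and Benjamini-Hochberg adjustment over all 13094. Intervals are 95% intervals from that fit. An exact permutation test of a single gene cannot go below p = 0.333 for 2 libraries against 2, or 0.0667 for 4 against 2. The fitting steps were tested on simulated data. Gene positions are from GENCODE M21 (GRCm38) and promoters from RefSeq (GRCm38.p6), which gave 15 windows for 9 of the 10 genes. No strand is known for the counting, so reads of overlapping genes may not be separated.

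The members and gene lists were chosen with earlier results of these data known. All 10 members are named. Of the 109 pathway genes and 25 FoxO targets, those passing by limma or in the authors' deposited table are named, and the 2 of smallest limma p in each role group over the contrasts T2D empty vector against control and T2D dnMCUb against T2D empty vector. For members with a range of at least 0.3, the 2 genes nearest in pattern are named. Alternatives covered filters, scaling, variance settings, a replicate block and leaving out each library.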

Additional observations from a re-analysis of the deposited data

How the results depend on the processing

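Of 600 values for the 10 genes under 15 alternatives, 563 kept their direction and their side of the threshold, 10 no longer passed, 7 newly passed and 20 changed sign. Of 464 values for the wider pathway, 451 kept both, 10 newly passed and 3 changed sign. Settings for filters, variance, array weights and a replicate block left the group means unchanged, so no sign could change there. The same held for only the groups compared and for leaving out a library outside the comparison. The counts above therefore do not measure steadiness. The number of genes called by limma moved more. Between T2D empty vector and control (0) it was 5 with array weights, 30 with only the groups compared, and 0 to 30 leaving out 1 library. Between T2D dnMCUb and control (9) it was 16 with array weights, 29 at a mean rlog of at least 7, 49 with robust empirical Bayes, and 0 without a filter, with median centring, with quantile normalization, without the variance trend or with only the groups compared, and 0 to 743 leaving out 1 library. For both diabetic groups against control (0) it was 40 with array weights, 3 with quantile normalization, 13 with robust empirical Bayes, and 0 to 314 leaving out 1 library. Between the diabetic groups (0) it was 0 to 14 leaving out 1 library. Between the 2 libraries of a group, the standard deviation of differences over genes was 0.0758 (control), 0.0829 (T2D empty vector) and 0.135 (T2D dnMCUb). The main fit shares its variance per gene over the 3 groups. The cause of the moves in the number of genes called was not tested.

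With the replicate number as a block, 0 genes were called in each of the 4 comparisons. Same-numbered libraries did not deviate together (r = -0.0876 for control with T2D empty vector, -0.0133 for control with T2D dnMCUb and -0.511 between the diabetic groups, across 13094 genes, which are not independent), so the numbers were not taken as pairs. A crossed pairing of the diabetic groups, chosen after seeing the data, called 11 genes.

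Signs changed only for small or widely spread differences. Leaving out 1 library, between T2D dnMCUb and T2D empty vector, Insr ran from -0.181 to 0.0223, Igf1r from -0.076 to 0.03, Irs2 from -0.366 to 0.209, Foxo3 from -0.0598 to 0.0148, Grb10 from -0.0181 to 0.0321, Igf2r from -0.154 to 0.188 and Prkce from -0.134 to 0.00511. Set against control, T2D dnMCUb had Insr running from -0.201 to 0.00197, Igf1r from -0.0389 to 0.0671, Foxo1 from -0.0483 to 0.0283 and Grb10 from -0.0333 to 0.0169 (0.0159 with quantile normalization). Between T2D empty vector and control, Irs2 ran from -0.0588 to 0.516. For both diabetic groups against control, Igf1r ran from -0.000898 to 0.0521, Foxo1 from -0.0121 to 0.0645 and Grb10 from -0.0242 to 0.000865 (0.00635 with quantile normalization). With 2 libraries a group and no counts, small differences were not detectable. Where a group is left with 1 library, that library is assumed to vary like the others. The ratios per length of all exons were added after seeing the data.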

Other observations

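Several relatives of the 10 genes were too low to test. Among substrates, Irs4 was listed at 0 in every library and Irs3 reached at most 3.73 on the rlog scale, while the insulin receptor-related gene Insrr reached 0.34. Foxo6 reached 4.75, the signalling inhibitor gene Socs1 4.45 and the atypical PKC gene Prkcz 4.31. Of annotated genes that overlap a member, the highest was Gm38034 within Foxo1, at 4.75, and that at Irs1, Gm9747 on the opposite strand, was listed at 0.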
